A study of Homo sapiens with 9 samples.

Results

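The genes that carry gemcitabine into a cell, switch it on, break it down and are hit by it were followed in 3 sublines of SUIT-2, a human pancreatic ductal adenocarcinoma (PDAC) cell line. They were 10 genes, taken as the rows of the deposited count table with the symbols SLC29A1, SLC29A2, SLC28A1, SLC28A3, DCK, CDA, DCTD, NT5C3A, RRM1 and RRM2, out of 42717 genes in the table. The sublines were S2-007, S2-028 and S2-020, with RNA sequencing of 3 libraries each, 9 in all. The labels name no drug, so the values describe cells that were grown in DMEM with fetal bovine serum. Maspin, the serpin that the study set out to follow, was found by the study in the nucleus and the cytoplasm of S2-007 cells, mainly in the cytoplasm of S2-028 cells and at a weak level in S2-020 cells. The sublines share the parent line, and each stands for 1 cell line, so a difference between them cannot be told apart from any other property in which the sublines differ. The labels do not say whether the libraries of a subline came from separate cultures, so p-values measure the spread between these libraries, which may be technical.

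Gemcitabine is a fluorinated analogue of deoxycytidine and a prodrug, and it has long been a backbone of chemotherapy for pancreatic cancer. It enters cells through equilibrative nucleoside transporters, encoded by SLC29A1 (ENT1) and SLC29A2 (ENT2), and through concentrative transporters, encoded by SLC28A1 (CNT1) and SLC28A3 (CNT3). Deoxycytidine kinase (DCK) adds the first phosphate, which is the limiting step of activation. Cytidine deaminase (CDA) turns the nucleoside into an inactive uridine form, the deaminase encoded by DCTD acts on the monophosphate, and the nucleotidase encoded by NT5C3A can take the phosphate off again. The diphosphate inhibits ribonucleotide reductase, whose large and small subunits are encoded by RRM1 and RRM2, and the triphosphate is built into DNA.

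The total count lay between 60328748 and 86253923 reads per library. Counts were normalized by the TMM method to CPM, the reads of a gene per 1000000 reads of its library, and genes were called where the quasi-likelihood test of edgeR gave a Benjamini-Hochberg adjusted p below 0.05 and the sublines differed at least 1.5-fold. Fold changes are given on the log2 scale with a standard error (SE). The SE was worked back from the test, as the size of the log2 fold change over the square root of the F statistic. The SE and the 95% intervals built on it are approximate and may be too narrow for large changes at few reads. All 10 genes passed the expression filter in each of the 3 comparisons. The libraries of 1 subline alone can meet this filter, as for CDA, which had 10, 8 and 2 reads in S2-020. SERPINB5, the gene of maspin, had 212 ± 9.10 CPM (SD, n = 3) in S2-007, 27.7 ± 2.75 in S2-028 and 6.55 ± 0.428 in S2-020. Markers of epithelial cells were present in every library, with a summed level over 6 genes of 9540 to 10100 CPM in S2-007, 15200 to 17800 in S2-028 and 4310 to 5430 in S2-020. Fibroblast markers summed to at most 5.72 CPM over 5 genes, endothelial markers to at most 9.84 over 3, and erythroid markers to at most 0.95 over 2. Leukocyte markers, of which CD68 made up nearly the whole sum, came to between 38.9 and 43.6 CPM over 4 genes in S2-007, where CD3E was at or under 3 counts, to between 10.4 and 12.3 in S2-028 and to between 7.73 and 9.28 in S2-020. In bulk RNA, fewer cells that express a gene cannot be told apart from less RNA per cell.

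CDA differed most in each of the 3 comparisons, DCK and several transporters were called in at least 1, and the ribonucleotide reductase subunits were called in none. In S2-028 against S2-007, 6 of the 10 genes were called, where 18.4% of all genes tested were called. Of these, 4 were upregulated (SLC29A1, SLC29A2, SLC28A1 and SLC28A3), beside 10.2% of all genes, and 2 were downregulated (CDA and DCK), beside 8.19% of all genes. In S2-020 against S2-007, 3 of the 10 were called, against 21.6% of all genes. SLC29A1 was upregulated, beside 9.57% of all genes, and CDA and NT5C3A were downregulated, beside 12.1% of all genes. In S2-028 against S2-020, 4 of the 10 were called, against 22.2% of all genes. CDA and SLC28A1 were higher in S2-028, beside 12.1% of all genes, and DCK and SLC29A1 were lower, beside 10.1% of all genes. Over the 10 genes the log2 fold change had a median of 0.11, 0.07 and 0.12 in the 3 comparisons, and that of all genes tested was 0.00, -0.05 and 0.02. The comparisons share libraries, so their calls are not independent of each other.

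**Figure D1:**
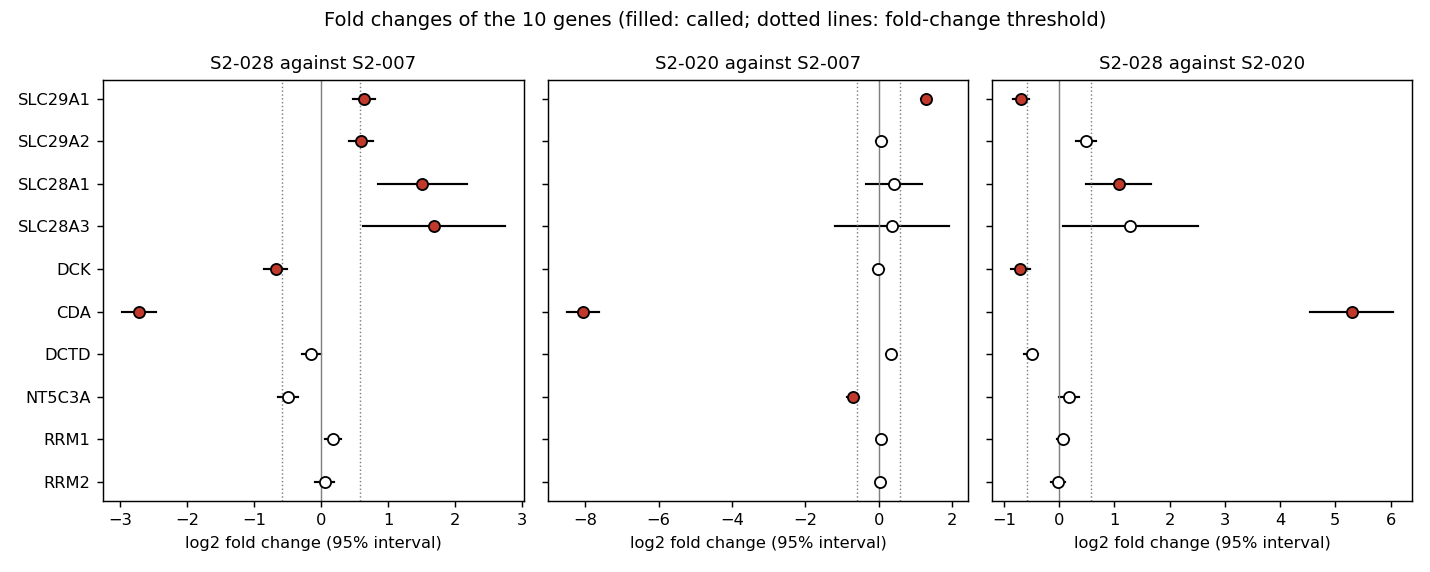
Log2 fold change of each of the 10 genes in S2-028 against S2-007, S2-020 against S2-007 and S2-028 against S2-020 (n = 3 libraries per subline). The 95% intervals are approximate and were worked back from the F statistic of edgeR's quasi-likelihood test. Filled points were called, and the dotted lines mark a 1.5-fold change up or down. CDA lies farthest from 0 in each panel (-2.72, -8.06 and 5.30), and RRM1 and RRM2 lie close to 0 in each.

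The DNA around the start sites of 4 of these genes is given here, because the comparisons below turn on CDA, DCK and SLC29A1, and the log2 fold change of RRM2 was within 0.05 of 0 in each comparison. The sequences are those of RefSeq on GRCh38.p14, windows of 300 bases that lie mostly upstream of a start site, 5′ to 3′ on the strand of the gene. Capitals mark the GC box GGGCGG, the CCAAT box and the E2F motifs TTTCGCGC, TTTGGCGC and TTTCCCGC, searched on both strands, so a capital CCGCCC or GCGCCAAA is a match on the other strand. The TATA box TATAAA (11.5% of all promoter windows in the table) was searched as well and was found in none of the 4, and neither was TTTCGCGC (0.515%). No match overlapped another. CDA is read from chr1:20588847-20589146 (plus strand), DCK from chr4:70993399-70993698 (plus strand), SLC29A1 from chr6:44219365-44219664 (plus strand) and RRM2 from chr2:10122489-10122788 (plus strand). SLC29A1 and RRM2 have 1 further start site each in the RefSeq table, and only the first listed is shown.
CDA: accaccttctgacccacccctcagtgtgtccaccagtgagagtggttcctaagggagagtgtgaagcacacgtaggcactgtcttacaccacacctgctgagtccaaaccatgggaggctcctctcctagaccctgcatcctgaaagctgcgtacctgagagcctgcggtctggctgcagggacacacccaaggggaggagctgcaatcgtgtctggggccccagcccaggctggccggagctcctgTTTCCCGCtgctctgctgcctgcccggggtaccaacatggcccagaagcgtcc
DCK: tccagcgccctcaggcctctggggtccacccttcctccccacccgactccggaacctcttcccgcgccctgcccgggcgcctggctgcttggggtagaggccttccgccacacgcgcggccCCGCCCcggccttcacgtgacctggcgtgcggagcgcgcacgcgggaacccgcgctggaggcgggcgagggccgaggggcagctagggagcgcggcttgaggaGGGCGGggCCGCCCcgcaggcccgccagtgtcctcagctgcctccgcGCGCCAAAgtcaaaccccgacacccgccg
SLC29A1: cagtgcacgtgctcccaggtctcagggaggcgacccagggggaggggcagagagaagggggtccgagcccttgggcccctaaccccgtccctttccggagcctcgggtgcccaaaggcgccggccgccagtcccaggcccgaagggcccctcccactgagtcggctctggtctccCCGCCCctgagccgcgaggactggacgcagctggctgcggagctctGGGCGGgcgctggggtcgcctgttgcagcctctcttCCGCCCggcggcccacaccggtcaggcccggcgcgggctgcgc
RRM2: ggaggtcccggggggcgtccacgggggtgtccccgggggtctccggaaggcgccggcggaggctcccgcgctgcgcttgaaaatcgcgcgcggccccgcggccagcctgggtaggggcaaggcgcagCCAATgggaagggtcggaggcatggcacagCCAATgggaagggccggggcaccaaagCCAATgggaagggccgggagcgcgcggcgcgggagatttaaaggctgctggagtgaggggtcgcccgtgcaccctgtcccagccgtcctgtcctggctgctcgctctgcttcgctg
The CDA window held 8 CpG dinucleotides at a GC content of 62.0%, and the DCK window held 37 at 76.3%. The windows of SLC29A1 and RRM2 held 27 and 31 CpG dinucleotides. CpG counts and GC content were not taken over all windows, so they have no background beside them. In the windows of the other members the CpG count ran from 4 in SLC28A1 to 47 in a window of DCTD. DCK and SLC29A1 each had 3 GC boxes, a motif that 45.0% of the 35116 promoter windows in the table hold at least once, and CDA and RRM2 had 0. RRM2 had 3 CCAAT boxes, a motif found in 34.6% of all windows, and the other 3 genes had 0. The counts for RRM2 hold for the window shown, since its further window held 1 GC box and 1 CCAAT box. The further window of SLC29A1 held 3 GC boxes. DCK had 1 TTTGGCGC match (0.652% of all windows) and CDA had 1 TTTCCCGC match (1.63% of all windows). These matches describe the letters in the windows, and binding was not measured.

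The transcript of ENT1 was highest in S2-020. SLC29A1 (ENT1, NCBI gene 2030, chr6:44219615-44234142 on the plus strand, 13 exons) is the transporter best known for bringing gemcitabine into pancreatic cancer cells. Its CPM was 31.7, 33.6 and 35.9 in the S2-007 libraries. It was 54.4, 48.3 and 54.5 in the S2-028 libraries, and 90.3, 79.9 and 82.8 in the S2-020 libraries. The 3 sublines were separated without overlap, in the order S2-020, S2-028, S2-007. In S2-028 against S2-007 the log2 fold change was 0.64 ± 0.0756 (SE, edgeR quasi-likelihood test, adjusted p = 6.01e-07), a 1.56-fold higher level. In S2-020 against S2-007 it was 1.29 ± 0.0645 (SE, edgeR quasi-likelihood test, adjusted p = 1.96e-12), a 2.45-fold higher level. S2-028 lay below S2-020 by a log2 fold change of -0.69 ± 0.0675 (SE, same test, adjusted p = 7.28e-08). These calls held in every alternative tried, and leaving out any 1 library kept the 3 log2 fold changes within 0.60 to 0.69, 1.24 to 1.36 and -0.73 to -0.61.

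SLC29A2 (ENT2, NCBI gene 3177, chr11:66362521-66372446 on the minus strand) encodes the second equilibrative carrier, which also takes up nucleobases. Its CPM was 39.1, 45.8 and 39.5 in S2-007 and 42.6, 47.9 and 43.2 in S2-020, which overlapped. The S2-028 libraries, at 59.3, 71.5 and 55.6, lay above both. The log2 fold change in S2-028 against S2-007 was 0.59 ± 0.0870 (SE, 95% interval 0.41 to 0.77, edgeR quasi-likelihood test, adjusted p = 1.24e-05), which is just past the fold threshold. It was under the threshold, at 0.56, 0.54 and 0.47, without S2-007 replicate 1, S2-007 replicate 3 and S2-028 replicate 2. It was 0.58 with DESeq2, with RLE size factors and with all 9 libraries in 1 fit, so the call rests on the threshold, while the adjusted p stayed at or under 0.000162 in these alternatives. Against S2-020 the log2 fold change of S2-028 was 0.48 (same test, adjusted p = 8.53e-05), under the fold threshold, and S2-020 against S2-007 gave 0.07 with a 95% interval of -0.08 to 0.23. Of the exon bases of SLC29A2, 10.3% lie under the long noncoding gene B4GAT1-DT on the opposite strand, and how the authors counted such reads is not given in the sources used here. B4GAT1-DT itself was at 1.17 ± 0.186 CPM (SD, n = 3) in S2-007, 0.699 ± 0.0636 in S2-020 and 0.624 ± 0.131 in S2-028.

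The concentrative transporters were low in all sublines, and SLC28A1 was higher in S2-028 than in the others. SLC28A1 (CNT1, NCBI gene 9154, chr15:84884662-84975649 on the plus strand), a sodium-coupled carrier for pyrimidine nucleosides, had 50, 40 and 29 reads in S2-007. It had 53, 58 and 53 reads in S2-020 and 92, 87 and 106 in S2-028. The S2-028 libraries were above all others, at 1.53 ± 0.192 CPM (SD, n = 3) against 0.724 ± 0.0237 in S2-020 and 0.533 ± 0.137 in S2-007. The log2 fold change of S2-028 was 1.51 ± 0.320 against S2-007 (SE, edgeR quasi-likelihood test, adjusted p = 0.000664) and 1.08 ± 0.280 against S2-020 (SE, adjusted p = 0.00398). The difference between S2-020 and S2-007 was 0.41 with a 95% interval of -0.35 to 1.17.

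SLC28A3 (CNT3, NCBI gene 64078, chr9:84275457-84368727 on the minus strand), which carries purine and pyrimidine nucleosides, had fewer reads still. There were 14, 30 and 9 reads in S2-007, 3, 27 and 41 in S2-020, and 63, 42 and 38 in S2-028. The first S2-020 library was at 3 reads, the number taken as the floor of detection, and the S2-007 and S2-020 libraries overlapped widely. In S2-028 against S2-007 the log2 fold change was 1.68 ± 0.508 (SE, edgeR quasi-likelihood test, adjusted p = 0.0129). That call was lost without S2-007 replicate 3 (1.36, adjusted p = 0.0542) and without S2-028 replicate 1 (1.42, adjusted p = 0.0954), and the value rose to 2.30 without S2-007 replicate 2. In S2-028 against S2-020 it was 1.29 (same test, adjusted p = 0.0904), and it passed the threshold without S2-020 replicate 3 (2.02, adjusted p = 0.0214) and with no filter on low counts (1.28, adjusted p = 0.0251). At these counts the interval of S2-020 against S2-007 ran from -1.20 to 1.91, so no difference was detectable at this depth.

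**Figure D2:**
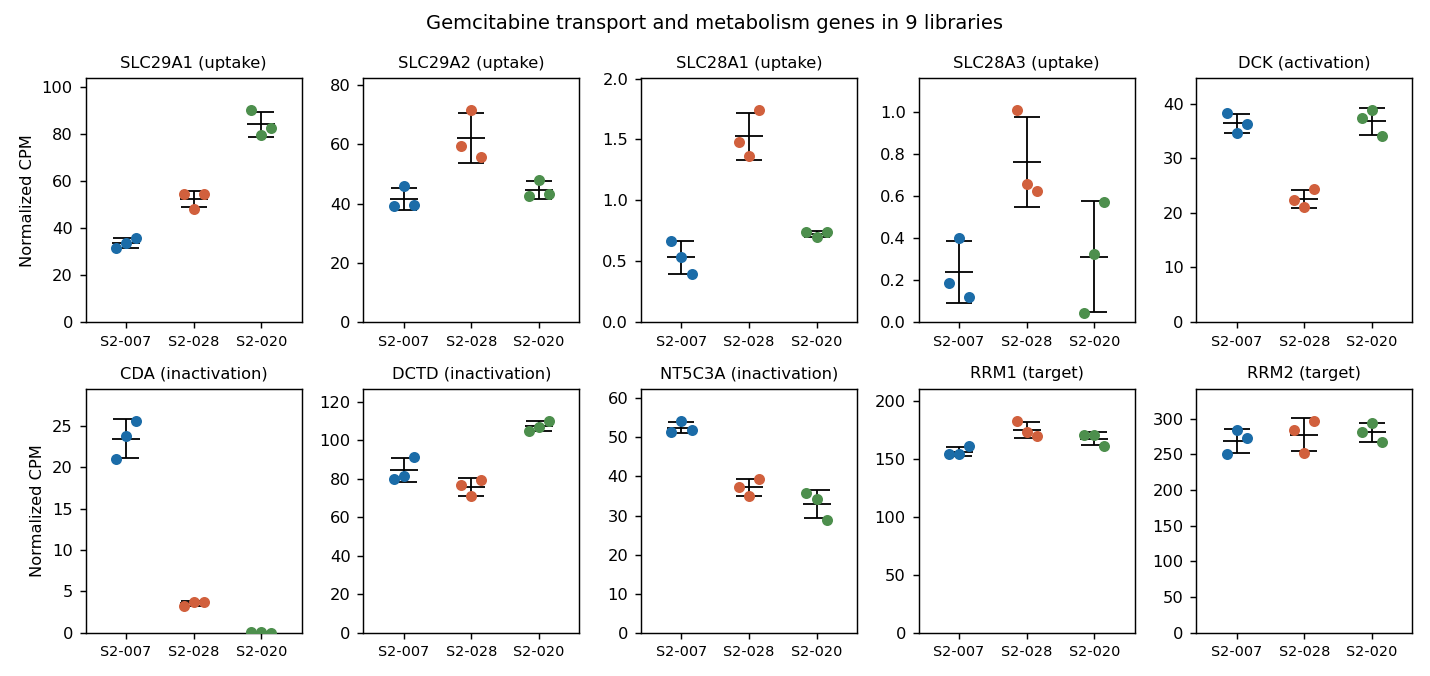
Normalized CPM of the 10 genes in each of the 9 libraries, by subline (points are libraries, the middle bar is the mean and the outer bars are 1 SD away, n = 3), with a separate linear axis from 0 for each gene. CDA runs from 21.0 to 25.6 CPM in S2-007 down to 0.0279 to 0.139 in S2-020, DCK is lower in the 3 S2-028 libraries (21.1 to 24.4), and the RRM2 libraries of the sublines overlap.

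The activating enzyme was lower in S2-028. DCK (NCBI gene 1633, chr4:70993649-71030914 on the plus strand, 7 exons) had 38.2, 34.7 and 36.3 CPM in S2-007. It had 37.4, 38.8 and 34.1 CPM in S2-020 and 22.3, 21.1 and 24.4 in S2-028. The 3 S2-028 libraries lay below all others, and the libraries of S2-007 and S2-020 overlapped. The log2 fold change of S2-028 was -0.68 ± 0.0835 against S2-007 (SE, edgeR quasi-likelihood test, adjusted p = 9.37e-07), a 1.61-fold lower level. Against S2-020 it was -0.70 ± 0.0820 (SE, edgeR quasi-likelihood test, adjusted p = 7.46e-07), a 1.63-fold lower level. Leaving out any 1 library kept it within -0.74 to -0.64 and -0.76 to -0.64. S2-020 against S2-007 gave -0.02 with a 95% interval of -0.17 to 0.13, a bound on the size of any difference. MOB1B lies over 6.41% of the exon bases of DCK on the same strand, and its own log2 fold changes were -0.08, -0.06 and -0.05 in the 3 comparisons, none of them called.

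The deaminase that inactivates the drug differed more than any other of the 10 genes. CDA (NCBI gene 978, chr1:20589097-20618903 on the plus strand, 4 exons) was counted at 1569, 1769 and 1888 reads in S2-007. There were 200, 236 and 227 reads in S2-028, and 10, 8 and 2 in S2-020, where the third library lay under the floor of 3 reads. The corresponding levels were 23.5 ± 2.35 CPM (SD, n = 3), 3.55 ± 0.282 and 0.0877 ± 0.0561, with no overlap between any of the sublines.

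CDA in S2-028 was 6.59-fold lower than in S2-007, with a log2 fold change of -2.72 ± 0.119 (SE, edgeR quasi-likelihood test, adjusted p = 9.13e-14). In S2-020 it was 267-fold lower than in S2-007, with a log2 fold change of -8.06 ± 0.212 (SE, edgeR quasi-likelihood test, adjusted p = 9.79e-17). The 95% interval of 196-fold to 363-fold is approximate and may be too narrow, since S2-020 had only 10, 8 and 2 reads. The level in S2-028 exceeded that in S2-020 by a log2 fold change of 5.30 ± 0.358 (SE, same test, adjusted p = 3.16e-10). Leaving out any 1 library kept the values within -2.79 to -2.66, -8.50 to -7.67 and 4.90 to 5.75. No other annotated gene covers the exons of CDA, and none of its 31-base words occurs in the transcripts of another gene. Its order S2-007, S2-028, S2-020 was also that of SERPINB5, while the summed epithelial markers were highest in S2-028 and lowest in S2-020. The means of NT5C3A, CD68 and the exporter gene ABCG2 had the order of CDA as well. With 3 sublines few orders are possible, and the share of all genes with this order was not counted. In S2-020 against S2-007, 5 of the 6 epithelial markers were downregulated, beside 12.1% of all genes. Among them were KRT19, a keratin of ductal cells (2120 ± 40.7 CPM in S2-007 against 103 ± 12.9 in S2-020, SD, n = 3), and CDH1, which encodes E-cadherin (54.2 ± 2.43 against 4.54 ± 0.270). In S2-028 against S2-007, 4 of the 6 were upregulated, beside 10.2% of all genes, and none was downregulated, beside 8.19%. Of the leukocyte markers, CD68, a lysosomal protein of macrophages singled out here after its values were seen, was the only one called higher in S2-007 than in either other subline, at 41.0 ± 2.52 CPM (SD, n = 3) against 10.4 ± 0.849 in S2-028 and 7.83 ± 0.641 in S2-020. PTPRC and CD79A had means of no more than 0.301 CPM in any subline, and CD3E had 0 reads in the S2-007 libraries and 18 to 22 in those of S2-028. The part of these markers in the level of CDA was not tested.

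The other enzymes of inactivation changed less. DCTD (NCBI gene 1635, chr4:182890091-182917611 on the minus strand) had 84.3 ± 6.18 CPM (SD, n = 3) in S2-007, 107 ± 2.19 in S2-020 and 75.7 ± 4.43 in S2-028. The S2-020 libraries, at 105, 107 and 110 CPM, lay above all others. Its log2 fold change was 0.32 in S2-020 against S2-007 (edgeR quasi-likelihood test, adjusted p = 0.000102), -0.50 in S2-028 against S2-020 (adjusted p = 6.96e-07) and -0.15 in S2-028 against S2-007 (adjusted p = 0.0933). None of these reached the fold threshold, so DCTD was not called.

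NT5C3A (NCBI gene 51251, chr7:33014113-33062776 on the minus strand) encodes a pyrimidine nucleotidase of the cytosol. Its CPM was 51.3, 54.2 and 52.0 in S2-007, 37.3, 35.1 and 39.4 in S2-028, and 35.8, 34.1 and 28.9 in S2-020. S2-007 lay above the other sublines, which overlapped with each other. The log2 fold change was -0.70 in S2-020 against S2-007 (SE 0.0756, edgeR quasi-likelihood test, adjusted p = 2e-07) and -0.49 in S2-028 against S2-007 (adjusted p = 1.07e-05), where it stayed under the fold threshold. S2-028 against S2-020 gave 0.18 with a 95% interval of 0.00 to 0.36. Of the 31-base words in its transcript, 38.9% also occur in other genes, mainly the pseudogene NT5C3AP1 (38.3%), and reads in these stretches may have been split between the copies, so the level is uncertain. The deposited counts hold no gene with the symbol NT5C3AP1, so reads placed there could not be seen.

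The subunits of the drug's target differed by less than the fold threshold between all sublines. RRM1 (NCBI gene 6240, chr11:4094685-4138932 on the plus strand) had 156 ± 3.63 CPM (SD, n = 3) in S2-007, 167 ± 5.76 in S2-020 and 175 ± 7.14 in S2-028. Its log2 fold change was 0.17 in S2-028 against S2-007 (95% interval 0.05 to 0.29, edgeR quasi-likelihood test, adjusted p = 0.0304) and 0.07 in each of the other comparisons, none past the fold threshold. RRM2 (NCBI gene 6241, chr2:10122568-10211010 on the plus strand), the subunit whose amount follows the S phase of the cell cycle, had 251, 284 and 273 CPM in S2-007. It had 281, 294 and 268 CPM in S2-020 and 284, 252 and 297 in S2-028, and all 3 sublines overlapped. The 95% interval of its log2 fold change was -0.09 to 0.19 in S2-028 against S2-007, -0.09 to 0.15 in S2-020 against S2-007 and -0.14 to 0.11 in S2-028 against S2-020. Of its 31-base words, 13.9% occur in other genes, among them the pseudogene RRM2P3 with 7.74%. The deposited counts hold no gene with the symbol RRM2P3, so reads placed there could not be seen, and the level of RRM2 is uncertain to that extent.

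Genes of proliferating cells were read beside RRM1 and RRM2. Of 14 such genes, 1 was upregulated in S2-028 against S2-007 and in S2-020 against S2-007, in each case MCM2, a subunit of the replicative helicase, with log2 fold changes of 0.99 and 0.67 (edgeR quasi-likelihood test, adjusted p = 2.98e-10 and 5.32e-09). None was downregulated in these comparisons, in which 10.2% and 9.57% of all genes were called higher and 8.19% and 12.1% lower. In S2-028 against S2-020, CCNA2 (cyclin A) and AURKA (a mitotic kinase) were lower, with log2 fold changes of -0.62 and -0.75 (adjusted p = 1.71e-07 and 7.74e-10), and none was higher. In that comparison 10.1% of all genes were called lower and 12.1% higher. The median over the 14 genes was 0.14, 0.17 and 0.00 in the 3 comparisons. MKI67, the gene of the Ki-67 antigen, was at 1010 ± 30.9 CPM (SD, n = 3) in S2-007, 993 ± 48.7 in S2-020 and 920 ± 18.3 in S2-028.

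To compare genes with each other, CPM were divided by the length of the MANE Select transcript in kilobases. On this scale RRM2 had the highest level of the 10 genes in each subline, at 82.7 ± 5.14 CPM per kb (SD, n = 3) in S2-007, 86.3 ± 4.12 in S2-020 and 85.2 ± 7.11 in S2-028. RRM1 was at 49.8 to 55.8 and DCTD at 39.2 to 55.7 CPM per kb, taken as subline means. CDA had rank 5 in S2-007 with 29.0 ± 2.91 CPM per kb, rank 8 in S2-028 with 4.38 ± 0.348 and rank 9 in S2-020 with 0.108 ± 0.0694. SLC29A1 moved in the other direction, from 16.2 ± 1.01 CPM per kb in S2-007, where it was level with SLC29A2 at 16.9 ± 1.53, to 40.5 ± 2.57 in S2-020, where SLC29A2 was at 18.2 ± 1.19. DCK was at 14.5 ± 0.709, 14.7 ± 0.969 and 9.02 ± 0.670 CPM per kb in S2-007, then S2-020, then S2-028. SLC28A3 was the lowest of the 10 in each subline, at no more than 0.154 CPM per kb, and SLC28A1 did not exceed 0.551. The order depends on the transcript taken. With the length of all exons of a gene merged, a choice made after seeing the data, RRM2 was at 29.4 CPM per kb in S2-007, below RRM1 at 36.9, and SLC29A1 was at 7.84, below SLC29A2 at 15.2.

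**Figure D3:**
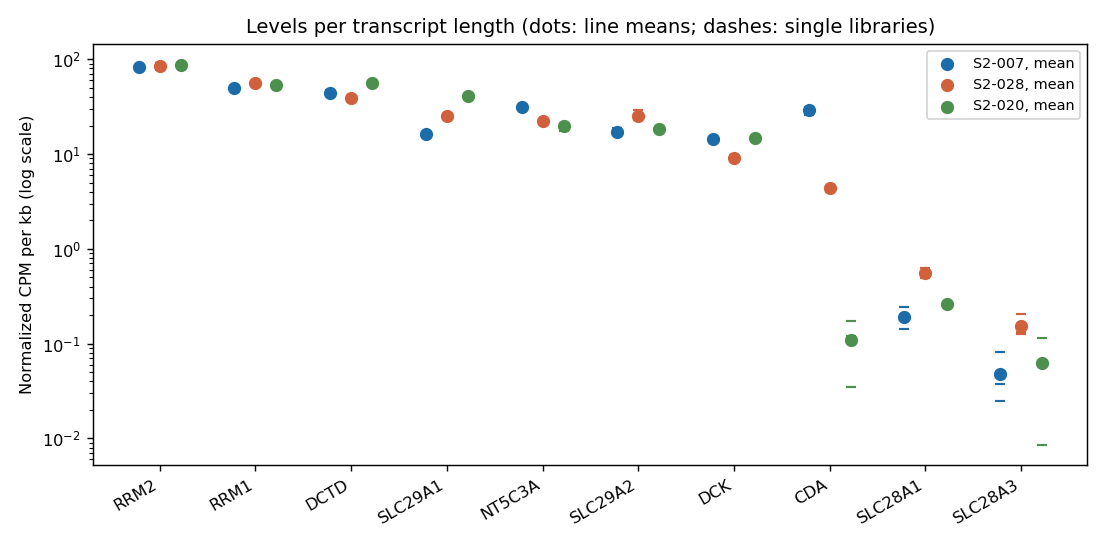
Normalized CPM per kilobase of the MANE Select transcript for the 10 genes, on a log axis, with the mean of each subline as a dot and its 3 libraries as dashes. RRM2 stands at the top in each subline (82.7 to 86.3 CPM per kb), followed by RRM1 and DCTD (39.2 to 55.8), SLC28A3 stands at the bottom (at most 0.154), and CDA spans 29.0 to 0.108 CPM per kb, below SLC28A1 in S2-020.

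Ratios within a library do not depend on how libraries are scaled, and they are given as descriptions without a test. The ratio of CDA to DCK, the enzymes that compete for the nucleoside, was 1.70, 2.12 and 2.19 in the S2-007 libraries. It was 0.448, 0.542 and 0.472 in S2-028 and 0.0115, 0.00768 and 0.00253 in S2-020. The sublines did not overlap, and DCK exceeded CDA per length in all 6 libraries of S2-028 and S2-020 but in none of S2-007. SLC29A1 to SLC29A2 was 0.964 ± 0.104 (SD, n = 3) in S2-007 and 1.01 ± 0.190 in S2-028, which overlapped, and 2.24 ± 0.267 in S2-020. RRM2 to RRM1 was 1.66 ± 0.104 in S2-007, with 1.62 ± 0.0392 for S2-020 and 1.53 ± 0.142 for S2-028, and all 3 overlapped. RRM2 to RRM2B, the alternative small subunit, was 13 ± 0.856, 11 ± 0.943 and 14 ± 1.97 in the same order. The product of SLC29A1 and DCK over that of RRM1 and RRM2 has been used as an expression score for gemcitabine. It came to 0.129 ± 0.00857 for S2-020, above the other sublines, with 0.0572 ± 0.00475 for S2-007 and 0.0478 ± 0.00348 for S2-028, whose libraries lay just below those of S2-007. With merged exon lengths most of these ratios took other values, with RRM2 to RRM1 at 0.797, 0.777 and 0.733 and CDA to DCK at 2.45 in S2-007 and 0.595 in S2-028.

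**Figure D4:**
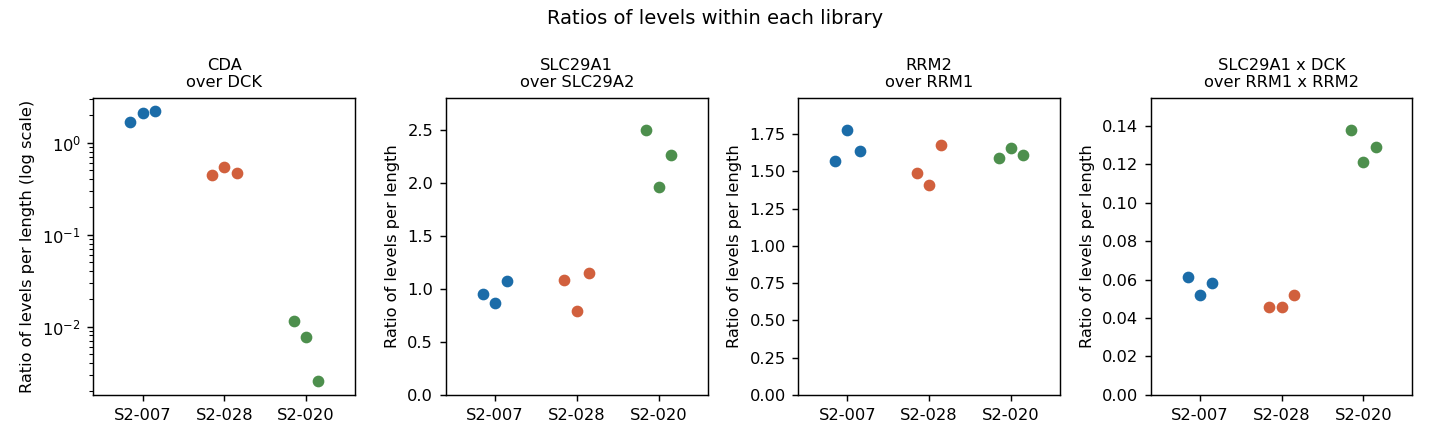
Ratios of levels per transcript length in each of the 9 libraries, with CDA over DCK on a log axis and the other 3 on linear axes from 0 (points are libraries). CDA over DCK runs from 1.70 to 2.19 in S2-007 through 0.448 to 0.542 in S2-028 to at most 0.0115 in S2-020, and S2-020 stands above the others in SLC29A1 over SLC29A2 and in the product of SLC29A1 and DCK over that of RRM1 and RRM2.

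A wider list of 34 genes covered other carriers of nucleosides, exporters, further kinases, nucleotidases and the supply of deoxynucleotides. All 34 passed the expression filter in each comparison. In S2-028 against S2-007, 5 were upregulated (ABCC4, TK1, NT5E, POLD1 and SAMHD1) and 1 was downregulated (ABCG2), with a median log2 fold change of 0.24, where 18.4% of all genes were called. In S2-020 against S2-007, 4 were upregulated (ABCC4, SAMHD1, TYMS and NT5E) and 3 were downregulated (ABCG2, NT5C2 and NME4), with a median of 0.19, where 21.6% of all genes were called. In S2-028 against S2-020, 1 was higher (ABCG2) and 2 were lower (ABCC4 and TYMS), with a median of 0.15, where 22.2% of all genes were called. The 6, 7 and 3 calls among 34 genes were thus near or under the share of all genes. The medians of all genes tested were 0.00, -0.05 and 0.02.

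In each comparison the values farthest from 0 in either direction were those of ABCC4 and ABCG2, which are 2 of the 4 exporters in the list, and the other two, ABCC5 and ABCC10, were not called in any. ABCC4, which encodes MRP4, a pump for nucleotide analogues, was at 53.9, 51.8 and 54.7 CPM in S2-007, 140, 147 and 135 in S2-028 and 383, 374 and 336 in S2-020. The sublines were far apart, with log2 fold changes of 1.40 in S2-028 against S2-007 (standard error 0.0616, edgeR quasi-likelihood test, adjusted p = 1.05e-13) and 2.74 in S2-020 against S2-007 (standard error 0.0599, adjusted p = 5.83e-18). ABCG2, which encodes the drug pump BCRP, ran the other way, with 1116, 1346 and 1503 reads in S2-007, 217, 186 and 218 in S2-028 and 9, 38 and 12 in S2-020. Its log2 fold change was -2.41 in S2-028 against S2-007 (standard error 0.140, edgeR quasi-likelihood test, adjusted p = 1e-11) and -6.13 in S2-020 against S2-007 (standard error 0.248, adjusted p = 7.38e-14). The latter value was -6.94 without S2-020 replicate 2, the library with 38 reads, and S2-028 against S2-020 moved from 3.70 to 4.49 without it. Its order, with S2-007 highest and S2-020 lowest, was that of CDA, though 3 sublines allow few orders.

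Of the further kinases, none of the 6 was called in S2-028 against S2-007 or S2-028 against S2-020. NME4, a mitochondrial nucleoside diphosphate kinase, was lower in S2-020 than in S2-007 (log2 fold change -0.72, edgeR quasi-likelihood test, adjusted p = 3.26e-09). CMPK1, which adds the second phosphate to gemcitabine, had 164 ± 5.41 CPM (SD, n = 3) in S2-007, 163 ± 8.91 in S2-020 and 129 ± 6.76 in S2-028, with a log2 fold change of -0.35 in S2-028 against S2-007 that stayed under the fold threshold. TK2, the mitochondrial kinase that also accepts deoxycytidine, was at -0.36 in that comparison and at -0.52 in S2-028 against S2-020, again under it. Among the genes of breakdown, NT5E (CD73, a nucleotidase of the cell surface) was higher than in S2-007 by 0.88 in S2-028 and 0.61 in S2-020 on the log2 scale (edgeR quasi-likelihood test, adjusted p = 2.03e-08 and 3.29e-08). The value of 0.61 fell to 0.57, under the threshold, without S2-007 replicate 2. SAMHD1, which hydrolyses deoxynucleoside triphosphates, had 57.4 ± 5.2 CPM (SD, n = 3) in S2-007, 86.4 ± 2.21 in S2-028 and 121 ± 5.41 in S2-020. Its log2 fold change was 1.05 in S2-020 against S2-007 (adjusted p = 2.99e-11) and 0.59 in S2-028 against S2-007 (adjusted p = 2.84e-07), a value that lay at the threshold and was 0.58 with DESeq2 and with RLE size factors, 0.55 without S2-007 replicate 1, and 0.58 without S2-007 replicate 2, S2-028 replicate 2 or S2-028 replicate 3. NT5C2, a nucleotidase that prefers purines, was lower in S2-020 than in S2-007 (-0.74, adjusted p = 3.47e-09).

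In the supply of deoxynucleotides, TK1, the thymidine kinase of the salvage route, was at 118 ± 5.90 CPM (SD, n = 3) in S2-007, 152 ± 2.08 in S2-020 and 222 ± 8.91 in S2-028. It was upregulated in S2-028 against S2-007 (log2 fold change 0.91, edgeR quasi-likelihood test, adjusted p = 1.02e-10). TYMS, the thymidylate synthase of the de novo route, was highest in S2-020 at 333 ± 14.8 CPM, against 172 ± 7.67 in S2-007 and 195 ± 3.29 in S2-028. Its log2 fold change was 0.92 in S2-020 against S2-007 (edgeR quasi-likelihood test, adjusted p = 1.55e-11) and -0.77 in S2-028 against S2-020 (adjusted p = 1.87e-10). POLD1, the catalytic subunit of DNA polymerase delta, was upregulated in S2-028 against S2-007 (0.75, adjusted p = 3.46e-09). RRM2B was at 30.3 ± 1.10 CPM in S2-007, 37.4 ± 2.65 in S2-020 and 29.2 ± 1.81 in S2-028, and it was not called in any comparison. In S2-028 against S2-020 the number of genes called from the wider list rose from 3 to 5 without S2-020 replicate 1 or without S2-028 replicate 3.

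**Figure D5:**
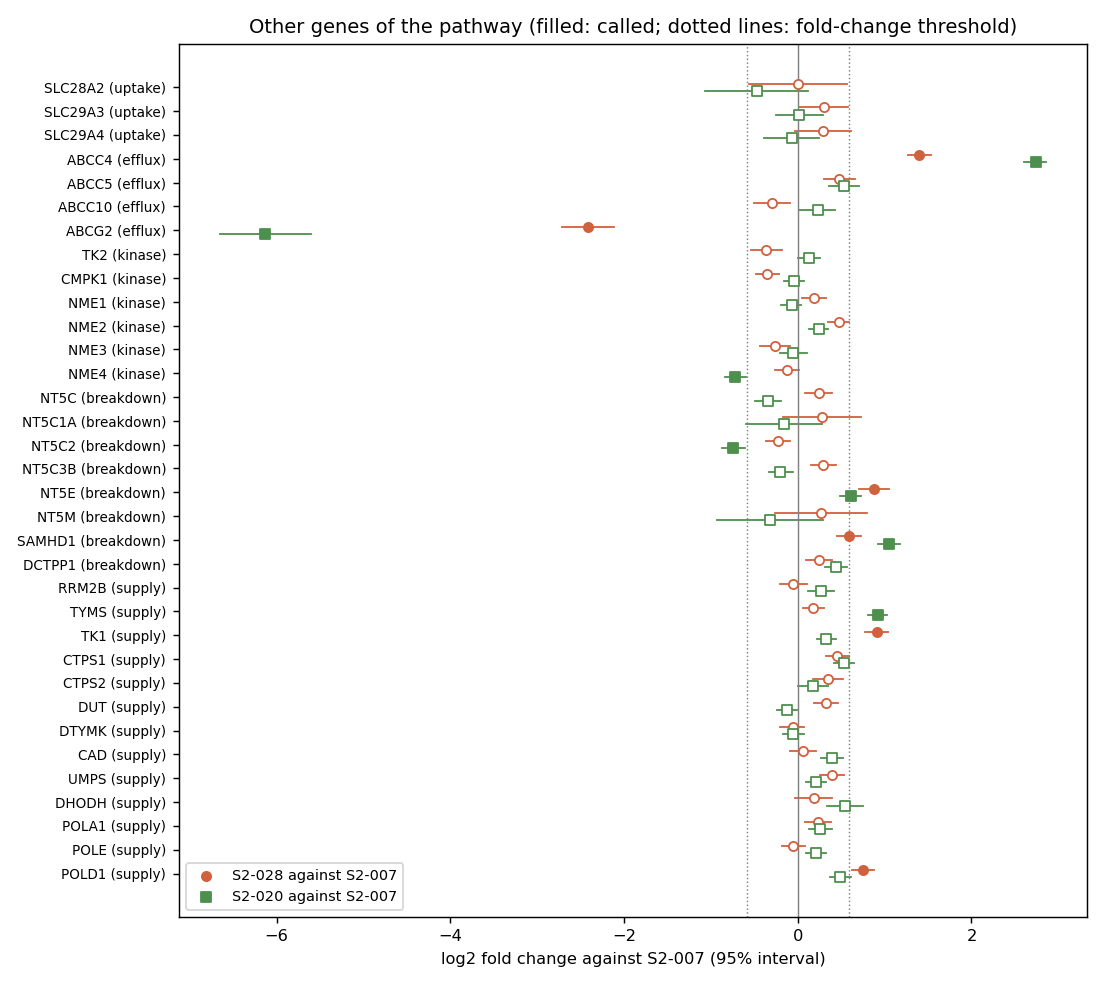
Log2 fold change against S2-007 of the 34 other genes of the pathway in S2-028 (circles) and S2-020 (squares), with approximate 95% intervals (n = 3 libraries per subline). Points are filled where called, and dotted lines mark a 1.5-fold change up or down. ABCC4 lies farthest to the right (1.40 and 2.74) and ABCG2 farthest to the left (-2.41 and -6.13), and both series share the S2-007 libraries.

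The genes around each member were read to see whether a stretch of the chromosome moved with it. Those around CDA, DCK, SLC29A1, NT5C3A, SLC29A2, SLC28A1, SLC28A3 and DCTD are given here. Around CDA, the 50 nearest tested genes had a median log2 fold change of 0.05 in S2-028 against S2-007, 0.02 in S2-020 against S2-007 and -0.06 in S2-028 against S2-020, where CDA itself was at -2.72, -8.06 and 5.30. Around DCK, the 50 nearest had a median of -0.24 in S2-028 against S2-007, -0.40 in S2-020 against S2-007 and 0.07 in S2-028 against S2-020, with DCK at -0.68, -0.02 and -0.70. In S2-028 against S2-007, 8 of the 50 were downregulated and 3 upregulated, where 8.19% and 10.2% of all genes were. In S2-020 against S2-007 the numbers were 15 and 1, beside 12.1% and 9.57% of all genes. In S2-028 against S2-020 they were 3 lower and 10 higher, beside 10.1% and 12.1%, so the neighbours did not follow DCK there. Around SLC29A1 the medians were -0.13, 0.13 and -0.21 in the same order, with SLC29A1 at 0.64, 1.29 and -0.69. Around NT5C3A they were -0.27, -0.16 and -0.04, with NT5C3A at -0.49, -0.70 and 0.18. Around SLC29A2 they were -0.08, -0.27 and 0.09, with SLC29A2 at 0.59, 0.07 and 0.48. Of its 50 neighbours, 2 were higher and 8 lower in S2-028 against S2-007, and 1 and 13 in S2-020 against S2-007. In S2-028 against S2-020 the numbers were 8 and 3, and the shares of all genes are those given for DCK. Around SLC28A1 the medians were -0.06, -0.03 and 0.06, and around SLC28A3 they were 0.04, -0.16 and 0.28. Around DCTD they were 0.07, 0.13 and -0.28, with DCTD at -0.15, 0.32 and -0.50. In S2-020 against S2-007, 9 of the 50 genes around DCTD were higher and 2 lower, beside 9.57% and 12.1% of all genes. In S2-028 against S2-020, 15 were lower and 5 higher, beside 10.1% and 12.1%, the direction of DCTD. DNA copy number was not measured, and its part in these values was not tested.

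Finally, the genes with the most similar profile over the 9 libraries were listed for the 7 genes that were called in any comparison. The measure was the root mean square difference of log2 CPM after each gene's mean was removed, among the 10524 genes whose mean log2 CPM was 3 or more. The nearest to SLC29A1 was FSTL1 (difference 0.0665), at 34.8 ± 3.75 CPM (SD, n = 3) in S2-007, 54.1 ± 4.50 in S2-028 and 81.0 ± 2.99 in S2-020, followed by USP13 (0.0807) and ATF5 (0.0848). The nearest to DCK were DCP1A (0.0658), ADIPOR1 (0.0696) and UBE2F-SCLY (0.0753), all lower in S2-028, and none of these 3 lies on the chromosome of DCK. For SLC29A2 they were NXT2 (0.0884), HEBP2 (0.0913) and RNF7 (0.102), and for NT5C3A GTF2A2 (0.0656), ADCY6 (0.0703) and MARK2 (0.0786). Among the 10524 genes the nearest to CDA were HLA-DRB1 (0.638), TMEM45B (0.658) and CEMIP (0.714). The log2 CPM of CDA spread from -2.58 to -4.15 over the S2-020 libraries, at 10, 8 and 2 reads. Counting noise there adds to the difference from any gene, so its size does not show whether the profile is unmatched. The mean log2 CPM of CDA, SLC28A1 and SLC28A3 lay under the cut of 3, so genes at their level were not compared. TMEM45B was at 107 ± 7.82 CPM (SD, n = 3) in S2-007, 35.2 ± 1.49 in S2-028 and 1.03 ± 0.249 in S2-020. For SLC28A3 the smallest difference was 0.750, to SIM2, and for SLC28A1 it was 0.141, to GJC1.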

How the data were processed

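RNA-seq libraries of 3 SUIT-2 sublines (9 libraries, n = 3 each) were analysed. Per the submitters' processing notes and the methods of the study, reads were trimmed with Trimmomatic 0.39 and aligned to GRCh38.p14 with BWA 0.7.17. The authors deposited whole-number counts of mapped reads per gene, without normalization. The counting tool, and its handling of strand and of reads with several matches, are not given in the sources used here. A further 18 columns of normalized values and 2 lines that name no gene, a total and a ratio, were not used.

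The analysis used edgeR 4.0.16 in R 4.3.3. After filterByExpr (minimum count 10, minimum total 15), genes were tested with the quasi-likelihood test on the 6 libraries of each comparison, with Benjamini-Hochberg adjustment over all genes tested. The study's methods name edgeR's likelihood ratio test, which was an alternative, as were DESeq2 1.42.0, RLE size factors, other filters, all 9 libraries in 1 fit, the replicate number as a block and each library left out. Printed CPM use TMM factors from all 9 libraries, so their ratio can differ slightly from a fold change. Log2 CPM use a prior count of 2, and the procedure was tested on simulated data.

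The members and lists were chosen with earlier results of these data known. Named beside them were RRM2B, TK2, CMPK1, NT5E and SAMHD1, up to 4 called genes per role of the wider list, 4 proliferation genes, the 3 nearest profiles of each called member, and a few genes that overlap a member or check the cell type, the latter chosen after their values were seen. Lengths and overlaps came from GENCODE v44 and promoters from RefSeq, both on GRCh38.p14, and the RefSeq gene table held 42539 of the identifiers (99.6%). Chi-square statistics per gene were 7.95 to 21.5 between libraries of a subline and 205 to 311 between sublines, so no library was counted as a duplicate. Floors of 3 counts cover counting error only.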

Additional observations from a re-analysis of the deposited data

How the results depend on the processing

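Over all alternatives the number of the 10 genes called ranged from 4 to 6 in S2-028 against S2-007, from 2 to 3 in S2-020 against S2-007 and from 3 to 5 in S2-028 against S2-020, and the number of all genes called stayed within 4502 to 5141, 5269 to 6068 and 5294 to 6074. Of the fold changes of the 10 genes under alternatives, 362 kept direction and side of the threshold, 9 lost a call, 2 gained one and 12 changed sign, and the cause was not tested. The lost calls were those of SLC29A2 and SLC28A3 in S2-028 against S2-007, and those gained were of SLC28A3 in S2-028 against S2-020. Of the fold changes of the wider genes followed, 456 kept direction and side, 7 lost a call and 3 gained one. The changes of sign were in genes with no call. DCK in S2-020 against S2-007 was 0.02 with RLE size factors, DESeq2 and all 9 libraries in 1 fit, and -0.05 to 0.04 with a library left out. With a library left out, RRM2 ranged from -0.00 to 0.11 in S2-028 against S2-007, from -0.00 to 0.09 in S2-020 against S2-007 and from -0.06 to 0.07 in S2-028 against S2-020, and SLC28A3 from -0.39 to 1.00 in S2-020 against S2-007. The wider list had 3 to 5 calls in S2-028 against S2-020 with a library left out, and 6 to 10 in S2-020 against S2-007, with 10 reached without S2-007 replicate 3. A filter of 10 counts in every library left no value for CDA in the comparisons with S2-020 and for SLC28A3 in all.

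The labels do not say whether the replicate numbers pair the libraries. The correlation of deviations from the subline means lay between -0.0312 and 0.23 for libraries of the same number. For different numbers it lay between -0.23 and 0.199, and with 3 libraries per subline such values cannot decide on pairing. With the replicate block, 4865, 5650 and 5716 genes were called in the 3 comparisons, and 5, 3 and 4 of the 10 genes, since SLC29A2 in S2-028 against S2-007 was then at 0.58, under the fold threshold. Depth limits the statements on SLC28A1, SLC28A3 and on CDA in S2-020.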
